A study of Mus musculus with 12 samples.

Results

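The Frizzled and LRP receptors bind Wnt proteins at the cell surface. Their genes were taken by name from the deposited count table of 40594 genes: Fzd1 to Fzd8, which encode Frizzled receptors, and Lrp5 and Lrp6, which encode their LRP co-receptors. All 10 genes were found, each with 1 Ensembl gene ID, and all 10 passed the filter on low counts, which kept 15494 genes for testing. RNA was sequenced from ventricles of adult mouse hearts in 4 groups of 3 libraries: Wnt loss of function left ventricle (WntLOF LV), control left ventricle (control LV), Wnt loss of function right ventricle (WntLOF RV) and control right ventricle (control RV). The labels give the genotypes only as control and Wnt LOF. They do not name the altered gene, the promoter or cells in which it was altered, or the strain and sex of the mice. Since they do not state that each library is a separate animal, p-values here measure only the spread between libraries, part of which may be technical. In each group only the library numbered 3 had the Y-linked gene Ddx3y above 1 CPM. The libraries of a group were therefore not all repeats of a single animal.

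A Wnt protein binds the cysteine-rich outer domain of a Frizzled, a receptor that crosses the membrane repeatedly, and in the canonical branch it brings LRP5 or LRP6 to the same complex. Dishevelled is recruited to the Frizzled tail, Axin to the LRP tail, and beta-catenin then escapes destruction and acts with TCF factors in the nucleus. Frizzleds without LRP also signal to cell polarity and calcium. In the heart the pathway is best known for its roles in development and after injury.

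The part of the receptor that carries the signal inward is short. Dishevelled binds a lysine-threonine-x-x-x-tryptophan motif (KTxxxW) that follows the last membrane pass, and the codons of that motif are shown because every Frizzled frame holds them. The sequences were read from the GENCODE M21 mouse transcripts (GRCm38), in the longest ATG-to-stop frame of each gene, from 5′ to 3′ in the transcript's own direction. Capitals mark the lysine and threonine codons (AAA or AAG, then ACN) and the tryptophan codon (TGG), and the lower case letters are the 3 free codons between them.
Fzd1: AAGACActgaattccTGG
Fzd2: AAGACActgcactcgTGG
Fzd7: AAGACCctgcagtcaTGG
Fzd5: AAGACTctggagtctTGG
Fzd4: AAAACTcttcacacgTGG
Fzd3: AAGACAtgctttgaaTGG
Fzd6: AAGACGtgcacagaaTGG
All 8 Frizzled frames held 1 match each, and the motif of Fzd8 is not shown. Of 2142 other protein-coding genes with a frame of 1614 to 2130 bases, the range of the Frizzled frames, 2.43% held the motif in frame. Over the 18 bases, Fzd2 and Fzd5 each differed from Fzd7 at 3 positions, Fzd1 at 4, Fzd4 at 6, and Fzd3 and Fzd6 at 9 each. Fzd3 and Fzd6, the Frizzleds best known for cell polarity, therefore lay farthest from Fzd7 of the 6 receptors compared with it.

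Long identical runs matter for the counts, because a read that lies wholly inside one cannot be assigned to a single gene. The longest runs shared by members of the Fzd1, Fzd2 and Fzd7 subfamily, all inside both coding frames, were the following.
Fzd1 and Fzd2: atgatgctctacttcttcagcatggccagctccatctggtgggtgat
Fzd1 and Fzd7: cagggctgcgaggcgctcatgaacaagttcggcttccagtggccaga
Fzd2 and Fzd7: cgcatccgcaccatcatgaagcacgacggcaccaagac
The first 2 runs are 47 bases long and the last is 38. Of 29 pairs of members compared (28 Frizzled pairs, and Lrp5 with Lrp6), 10 shared an identical run of 25 bases and 0 shared one of 50. The longest run common to Lrp5 and Lrp6 was 22 bases. Outside that subfamily, Fzd3 and Fzd5 shared a run of 32 bases and Fzd5 and Fzd8 one of 29. No source used here gives the read length or the treatment of reads with several matches. The counts of Fzd1, Fzd2 and Fzd7 carry that uncertainty, as do those of Fzd3, Fzd5 and Fzd8 if reads were short. Runs shared with genes outside the 10 members were not examined. The strand setting is likewise unknown. Fzd5 shares 1233 exonic bases and Fzd6 shares 152 with a gene on the opposite strand (Gm38058 and Gm26704), so reads of those stretches cannot be assigned by strand. Of the pair, Gm26704 alone was matched in the count table used here.

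Library totals lay between 13.3 and 19.2 (1e+06 reads). Levels are in counts per 1e+06 reads (CPM), with library sizes scaled by TMM. The 7 cardiomyocyte markers together made up 65807 to 74064 CPM of each library, and none was at 0. The label of ventricle was in doubt for a pair of libraries. Wif1, Aqp4 and Kcnd2, which were higher in all control RV libraries than in all control LV libraries, stood in the library labelled WntLOF LV 1 at 13.5, 31.2 and 91.2 CPM, each between the lowest and highest control RV values. In the library labelled WntLOF RV 1 they stood at 2.55, 8.11 and 54.2 CPM, with Wif1 below all 3 control LV libraries, Aqp4 inside their range and Kcnd2 between the ranges of the control ventricles. Kcnd2 also lay between those ranges in WntLOF RV 3, at 59.5 CPM, where Wif1 (13.2 CPM) and Aqp4 (27.5 CPM) lay inside the control RV ranges. WntLOF LV 1, WntLOF RV 1 and the library labelled control LV 2 had the same state at all 15 genes that were either on or off across libraries, whereas control RV 2 and control LV 2 differed at 5 of them. Among the other same-numbered ventricle libraries, those of control 1 and WntLOF 3 differed at 0 and those of control 3 and WntLOF 2 at 1. That criterion, an 8-fold gap in level, was the second one tried and was chosen after the data were seen. Myl7, an atrial gene, stood at 10.2 CPM in the library labelled WntLOF RV 3 and at 1.26 CPM or less elsewhere. Each library was left out in turn, and values without both WntLOF libraries numbered 1 are given beside several of the results. For Ctnnb1, the gene of beta-catenin, Wnt LOF against control gave log2 fold changes of -0.20 (SE 0.14) in LV and -0.37 (SE 0.14) in RV. Adjusted p was 0.999 and 1, and unadjusted p 0.185 and 0.0203, by edgeR's quasi-likelihood test with Benjamini-Hochberg adjustment. Its RV libraries did not overlap, at 425, 454 and 352 CPM in WntLOF and 560, 523 and 511 CPM in control. Its LV libraries did, at 395, 532 and 409 CPM in WntLOF and 598, 426 and 509 CPM in control. Of all genes tested, 3.94% lay wholly lower in WntLOF RV, and 2.7% had an unadjusted p under 0.05 in the RV. For Axin2, a feedback target of the pathway, the log2 fold changes were 0.07 (SE 0.31) in LV and -0.23 (SE 0.31) in RV, with the same adjusted p of 0.999 and 1.

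All 10 receptors were detected in every library, at levels that spanned a wide range. In bulk tissue, fewer cells of a type and less RNA per cell cannot be told apart, so a level does not say which cells hold a receptor. Levels are compared between genes as CPM per kilobase of exon in the GENCODE M21 models. The co-receptors Lrp6 (ENSMUSG00000030201), required for canonical signalling in the embryo, and Lrp5 (ENSMUSG00000024913), known for its role in bone mass and retinal vessels, stood highest, with means over the 12 libraries of 10.9 and 10.2 CPM per kb. Among the Frizzleds, Fzd4 (ENSMUSG00000049791), the receptor of Norrin and of vascular growth in the retina, had 7.46 CPM per kb. Fzd6 (ENSMUSG00000022297), a polarity receptor known for hair patterning, had 5.91.

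The middle of the order held Fzd1 (ENSMUSG00000044674) at 4.04 CPM per kb, Fzd7 (ENSMUSG00000041075) at 3.61 and Fzd8 (ENSMUSG00000036904) at 3.55. Fzd1 and Fzd7 belong to one subfamily, and Fzd8 is the close relative of Fzd5. Below them lay Fzd2 (ENSMUSG00000050288), a receptor that can bind Wnt5a, at 2.11 CPM per kb and Fzd5 (ENSMUSG00000045005), known for roles in the eye and in yolk sac vessels, at 1.89. Fzd3 (ENSMUSG00000007989), known for guiding axons, was lowest at 0.283.

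Several neighbours in this order overlapped. Lrp6 ran from 9.62 to 11.6 CPM per kb over the 12 libraries and Lrp5 from 8.65 to 12.3, so by exon length the order of the co-receptors is not separated from their spread. Per kb of the longest transcript they did not overlap, with Lrp6 at 14 to 17 CPM per kb and Lrp5 at 9.47 to 13.5. Whether they separate therefore depends on the length used. Fzd1 (3.37 to 5.51 CPM per kb), Fzd7 (3.00 to 4.62) and Fzd8 (3.02 to 4.04) overlapped, as did Fzd2 (1.27 to 2.61) and Fzd5 (1.5 to 2.15). Fzd4 reached up to 8.93 CPM per kb, above the lowest Lrp5 value, and down to 6.08, below the highest Fzd6 value of 6.59. A pair of gaps split the whole order: Fzd1, Fzd7 and Fzd8 lay wholly above Fzd2 and Fzd5, and Fzd3, with a highest value of 0.331 CPM per kb, lay below every other member. Some single members also lay wholly apart. The lowest Lrp6 value, 9.62 CPM per kb, was above the highest of Fzd4, 8.93. The lowest Fzd6 value, 5.24, was above the highest of Fzd7, 4.62, and of Fzd8, 4.04. Within each single library, by exon length, Fzd4 lay above Fzd6 and Fzd6 above Fzd1.

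**Figure D1:**
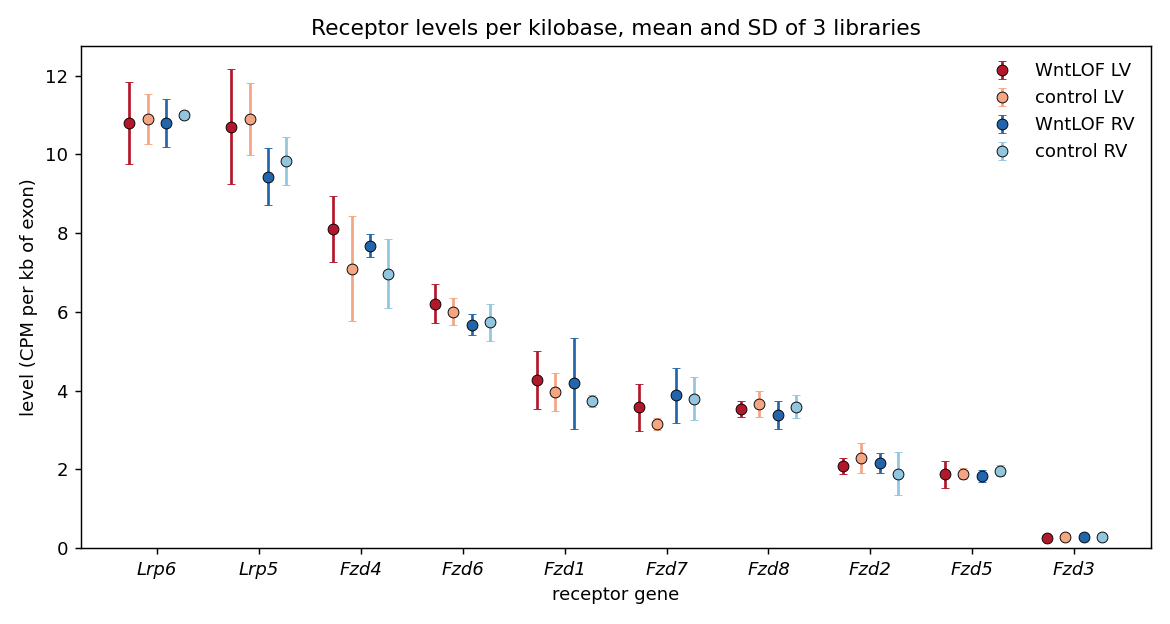
Level of each receptor gene (x axis, in falling order of its mean) in CPM per kb of exon (y axis), as mean and SD of 3 libraries for WntLOF LV, control LV, WntLOF RV and control RV. The 4 groups of a gene lie close together beside the distance between genes, from 10.9 CPM per kb for Lrp6 to 0.283 for Fzd3.

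As shares of the summed Frizzled level per kb, Fzd4 made up a median of 25.9% (22.3% to 30.2% over libraries) and Fzd6 20.6% (18.5% to 22.3%). Fzd1 made up 13.4% (11.4% to 18.4%), Fzd8 12.6% (10.8% to 13.6%) and Fzd7 11.9% (10.6% to 15.7%). Fzd2 made up 7.51%, Fzd5 6.63% and Fzd3 0.974%. The summed level was 29.9 ± 0.715 CPM per kb in WntLOF LV and 28.4 ± 1.37 in control LV, and 29.1 ± 1.03 in WntLOF RV and 28 ± 0.857 in control RV (SD, n = 3 each). The WntLOF LV libraries ran from 29.5 to 30.8 and the control LV libraries from 27.1 to 29.8, so the groups overlapped, as they did in the RV. Lrp6 over Lrp5, both per kb, was 0.901 to 1.21 in WntLOF LV and 0.875 to 1.12 in control LV, and 1.07 to 1.25 in WntLOF RV and 1.06 to 1.17 in control RV, ranges that overlapped.

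The receptors varied between libraries about as much as other genes of their level. The highest library had a median of 1.43 times the CPM of the lowest over the 10 members, beside 1.44 over the 10188 genes with a mean CPM in the members' range. Fzd2 spread most, at 2.07 times, and Lrp6 least, at 1.21 times. The biological coefficient of variation was 12.1% at the median of members and 13.3% over all genes tested.

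**Figure D2:**
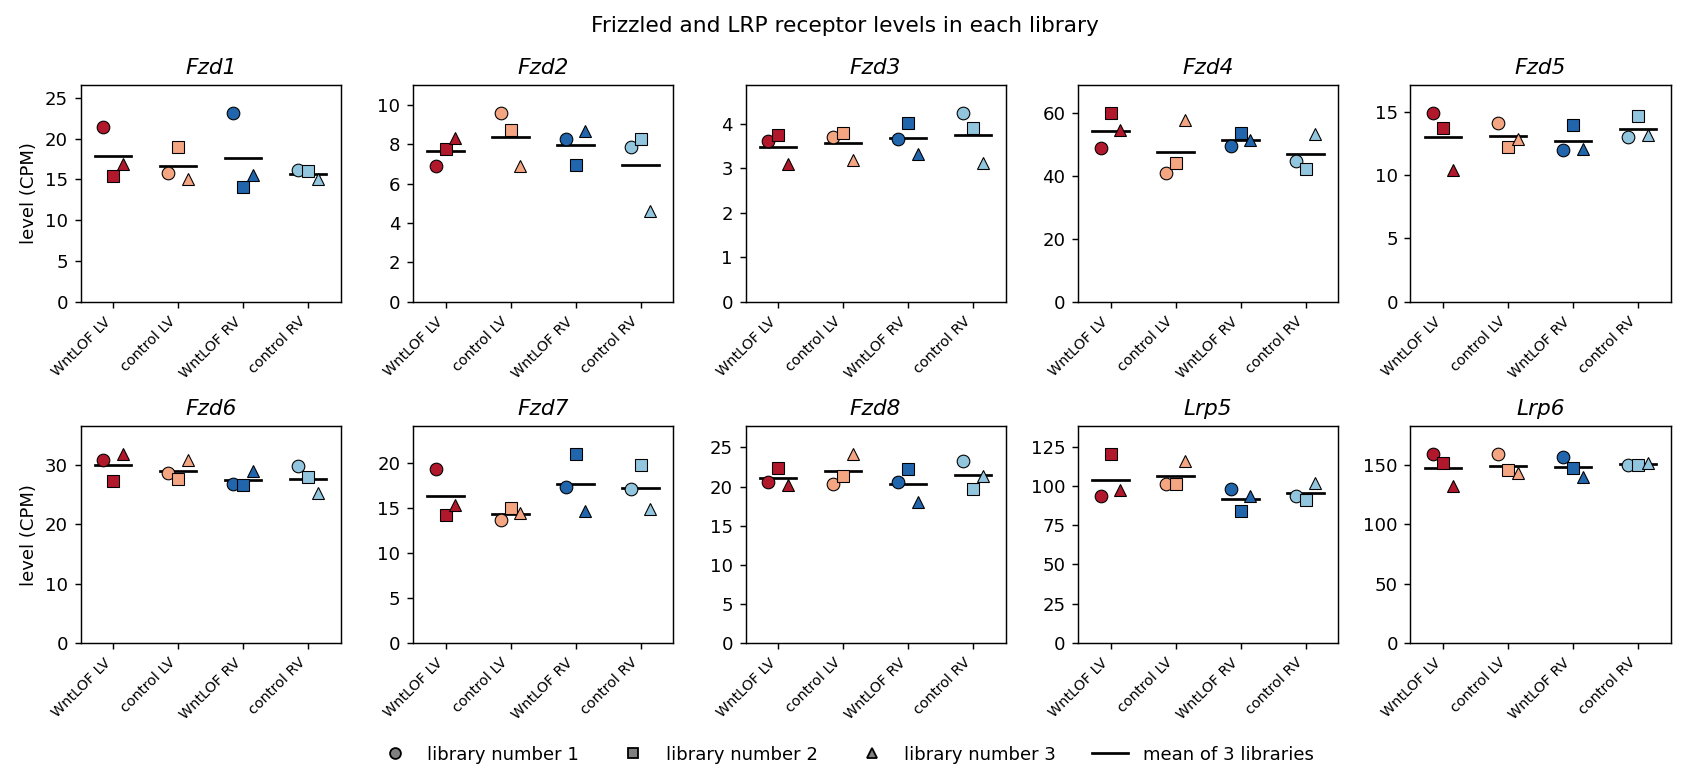
Level of each receptor (y axis, CPM, one panel per gene with its own scale from 0) in every library of WntLOF LV, control LV, WntLOF RV and control RV (x axis); circles, squares and triangles mark libraries numbered 1, 2 and 3, and bars the mean of 3. In all 10 panels the WntLOF and control libraries of a ventricle overlap.

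Loss of Wnt function was compared with control in each ventricle, to ask whether receptor transcripts differ between the genotypes. No receptor passed the test in either ventricle. The largest log2 fold change of a receptor was 0.20 in both the LV (Fzd4) and the RV (Fzd2). By edgeR's quasi-likelihood test with Benjamini-Hochberg adjustment over 15494 genes, 0 of 10 members were called for the LV and likewise 0 for the RV, beside 0% of all genes in either ventricle. At an unadjusted p under 0.05 there were also 0 members, beside 2.85% of genes in the LV and 2.7% in the RV, and DESeq2 gave 0 members called and 0 at an unadjusted p under 0.05. No receptor had groups that did not overlap. Among all genes, 3.95% lay wholly higher and 3.95% wholly lower in WntLOF LV, and 3.61% and 3.94% in WntLOF RV.

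Of the co-receptors, Lrp6 had 159, 152 and 132 CPM in WntLOF LV and 159, 146 and 143 CPM in control LV. In the RV it had 157, 148 and 140 CPM in WntLOF and 150, 150 and 152 CPM in control. The groups overlapped in both ventricles, and the log2 fold changes were -0.02 (SE 0.09) for the LV and, for the RV, -0.03 (SE 0.09). With 95% intervals of 0.869 to 1.12 and 0.865 to 1.12 on the linear fold, Lrp6 was the most closely bounded receptor.

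Lrp5 had 93.7, 120 and 97.5 CPM in WntLOF LV and 101, 101 and 116 CPM in control LV. The RV libraries had 98.2, 84.2 and 93.5 CPM in WntLOF and 93.7, 91.1 and 102 CPM in control. The highest and the lowest of its LV libraries were both WntLOF. Its log2 fold changes were -0.03 (SE 0.10) for the LV and, for the RV, -0.06 (SE 0.10).

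Fzd4 was the receptor with the smallest p in both ventricles. It had 48.9, 60.0 and 54.6 CPM in WntLOF LV and 40.9, 44.3 and 57.9 CPM in control LV. Its RV levels were 49.7, 53.6 and 51.5 CPM in WntLOF and 44.9, 42.3 and 53.5 CPM in control. In each ventricle all WntLOF libraries lay above 2 of the 3 control libraries, and the control library numbered 3 lay among the WntLOF ones. Its LV log2 fold change of 0.20 (SE 0.13) had an adjusted p of 0.999 and an unadjusted p of 0.152 by edgeR's quasi-likelihood test with Benjamini-Hochberg adjustment. In the RV it was 0.14 (SE 0.13), with an adjusted p of 1 and an unadjusted p of 0.299 by the same edgeR test.

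Without the library labelled control LV 3 the LV value of Fzd4 was 0.36, with an unadjusted p of 0.00764 and an adjusted p of 0.999 by edgeR. That was the highest value when each library was left out in turn. The range was 0.10 to 0.36, with 0.10 (unadjusted p 0.48 by edgeR) without control LV 1. Endothelial markers went the other way in the LV. The 8 markers summed to between 849 and 1035 CPM in WntLOF LV and between 1050 and 1153 CPM in control LV. All 8 had log2 fold changes below 0, with a median of -0.17 and 0 called, and none was at 0 in any group. In the RV the sums overlapped, at 872 to 1050 CPM in WntLOF and 943 to 1007 CPM in control. There 4 markers had log2 fold changes above 0 and 4 below, with a median of -0.02. The part of these markers in the level of Fzd4 was not tested.

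In the Fzd1, Fzd2 and Fzd7 subfamily, Fzd1 had 21.4, 15.4 and 16.9 CPM in WntLOF LV and 15.8, 18.9 and 15.1 CPM in control LV. In the RV it had 23.1, 14.1 and 15.5 CPM in WntLOF and 16.1, 16 and 15 CPM in control. The 3 highest libraries, WntLOF RV 1, WntLOF LV 1 and control LV 2, shared all on-off gene states, as did some same-numbered ventricle libraries among the rest. The other 9 ran from 14.1 to 16.9 CPM. Of all genes tested, 0.891% were higher in these 3 libraries than in every other, and Fzd1 was the 1 member to be so, an observation made after its values were seen. Its log2 fold changes were 0.11 (SE 0.18) for the LV and, for the RV, 0.17 (SE 0.18), and without both WntLOF libraries numbered 1 they were -0.04 and -0.08.

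Fzd2 had 6.88, 7.77 and 8.30 CPM in WntLOF LV and 9.57, 8.70 and 6.88 CPM in control LV. The RV libraries had 8.28, 6.92 and 8.69 CPM in WntLOF and 7.87, 8.28 and 4.63 CPM in control. One control RV library, numbered 3, was the lowest of all 12. The log2 fold changes were -0.14 (SE 0.20) for the LV and, for the RV, 0.20 (SE 0.20). The LV value was -0.07 without both WntLOF libraries numbered 1 and -0.03 without control LV 1, and the RV value was -0.02 without control RV 3.

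Fzd7, a receptor known in stem cells and gut repair, had 19.3, 14.2 and 15.3 CPM in WntLOF LV and 13.6, 15 and 14.4 CPM in control LV. Its RV levels were 17.3, 20.9 and 14.6 CPM in WntLOF and 17.1, 19.7 and 14.8 CPM in control. In both RV groups the library numbered 2 was highest and that numbered 3 lowest. Its log2 fold changes were 0.18 (SE 0.15) for the LV and, for the RV, 0.03 (SE 0.15). Its highest LV library was WntLOF LV 1, and without both WntLOF libraries numbered 1 the LV value was 0.04.

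Of the related Fzd5 and Fzd8, Fzd5 had 14.9, 13.7 and 10.4 CPM in WntLOF LV and 14.1, 12.2 and 12.9 CPM in control LV. In the RV it had 12, 14 and 12.1 CPM in WntLOF and 13, 14.7 and 13.2 CPM in control. Its log2 fold changes were -0.01 (SE 0.14) and -0.10 (SE 0.14) in the LV and the RV. Fzd8, whose outer domain is a standard model of Wnt binding, varied within a narrow band.

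Fzd8 had 20.6, 22.4 and 20.2 CPM in WntLOF LV and 20.3, 21.4 and 24.1 CPM in control LV. The RV libraries had 20.6, 22.2 and 18 CPM in WntLOF and 23.3, 19.7 and 21.4 CPM in control. The groups overlapped in both ventricles. The log2 fold changes were -0.05 (SE 0.11) for the LV and, for the RV, -0.08 (SE 0.11).

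The polarity receptors did not separate the genotypes either. Fzd6 had 30.8, 27.3 and 31.7 CPM in WntLOF LV and 28.6, 27.6 and 30.8 CPM in control LV. Its RV levels were 26.7, 26.6 and 28.9 CPM in WntLOF and 29.7, 27.9 and 25.3 CPM in control. Its log2 fold changes were 0.05 (SE 0.09) for the LV and, for the RV, -0.01 (SE 0.09), about as closely bounded as those of Lrp6.

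Fzd3 rested on 42 to 76 reads per library, the fewest of any member. It had 3.62, 3.75 and 3.09 CPM in WntLOF LV and 3.71, 3.80 and 3.18 CPM in control LV. In the RV it had 3.67, 4.03 and 3.32 CPM in WntLOF and 4.24, 3.91 and 3.13 CPM in control. In every group the library numbered 3 was the lowest. The log2 fold changes were -0.04 (SE 0.17) in both ventricles, and counting alone gives a relative error of 12.8% per library at its mean depth.

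Over the 10 members the median log2 fold change was -0.01 in the LV and -0.02 in the RV, beside 0.00 over all genes tested in each. The median absolute log2 fold change was 0.05 in the LV and 0.07 in the RV for members, beside 0.10 over all genes in each ventricle. A call that misses the threshold does not show that levels were alike. The 95% bounds on the linear fold lay between 0.674 and 1.43 for all members in the LV and between 0.753 and 1.55 in the RV. In the authors' deposited tables all 10 members were present, with Fzd4 at a log2 fold change of 0.22 (p = 0.0591, adjusted p = 0.841) in the LV. In the RV the authors' deposited table put Fzd2 first among the members, at 0.28 (p = 0.153, adjusted p = 0.918). Among all genes of the authors' deposited tables the lowest adjusted p-values were also 0.841 in the LV and 0.918 in the RV.

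**Figure D3:**
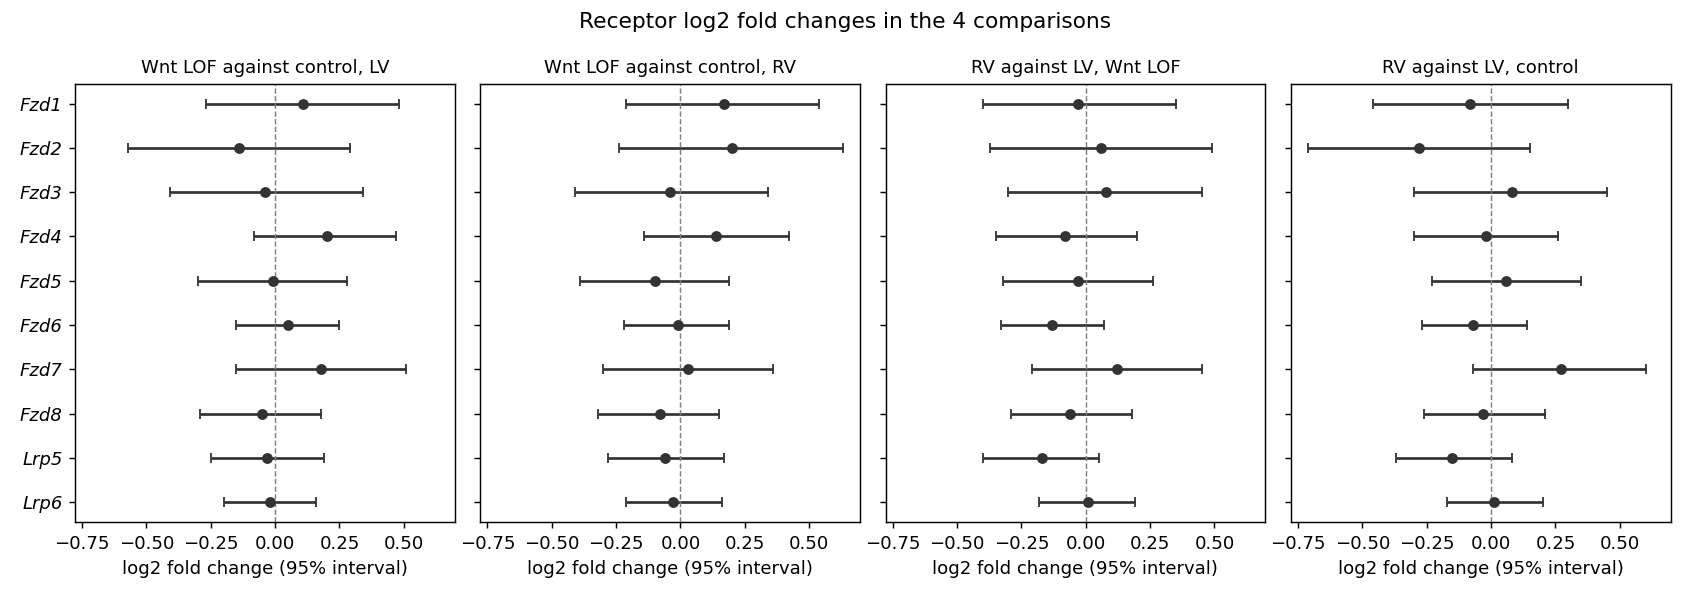
Log2 fold change of each receptor (rows) with its 95% interval (x axis) for Wnt LOF against control in the LV and the RV and for RV against LV in Wnt LOF and control, from edgeR's quasi-likelihood fit over 12 libraries. Every interval crosses 0, and those of Lrp6 and Fzd6 are the narrowest.

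The right ventricle was then set against the left within each genotype. These comparisons use the same libraries as those above, so the values are given side by side and not as independent evidence. No receptor passed the test in either genotype. By edgeR's quasi-likelihood test with Benjamini-Hochberg adjustment 0 of 10 members were called in Wnt LOF and 0 of 10 in control, beside 0% of genes. At an unadjusted p under 0.05 there were 0 members in each, beside 4.81% of genes in Wnt LOF and 4.89% in control, and DESeq2 gave 0 and 0 members by both measures. No member had ventricles that did not overlap. Among all genes, 3.36% lay wholly higher and 3.7% wholly lower in WntLOF RV, and 6.68% and 5.92% in control RV.

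Fzd7 had the smallest p in control hearts. Its 3 control RV libraries (17.1, 19.7 and 14.8 CPM) stood against 13.6, 15 and 14.4 CPM in control LV, and overlapped only between 14.8 and 15. Its log2 fold change of 0.27 (SE 0.15) had an adjusted p of 0.922 and an unadjusted p of 0.109 by edgeR's quasi-likelihood test with Benjamini-Hochberg adjustment. In Wnt LOF hearts it was 0.12 (SE 0.15), and without both WntLOF libraries numbered 1, whose ventricle genes went against their labels, it was 0.27 (SE 0.177).

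Lrp5 had the smallest p in Wnt LOF hearts. It lay at 98.2, 84.2 and 93.5 CPM in WntLOF RV and 93.7, 120 and 97.5 CPM in WntLOF LV, with a log2 fold change of -0.17 (SE 0.10). In control hearts the value was -0.15 (SE 0.10). Without both WntLOF libraries numbered 1 the Wnt LOF value was -0.29, with an unadjusted p of 0.0404 and an adjusted p of 0.535 by edgeR's quasi-likelihood test. Without WntLOF LV 2, the library at 120 CPM, it was -0.06 (unadjusted p 0.57 by the same test). When each library was left out in turn it ran from -0.24 to -0.06. By contrast Lrp6 had log2 fold changes of 0.01 (SE 0.09) in both genotypes.

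Fzd2 stood at 7.87, 8.28 and 4.63 CPM in control RV against 9.57, 8.70 and 6.88 CPM in control LV. Its log2 fold change was 0.06 (SE 0.20) in Wnt LOF and -0.28 (SE 0.20) in control, and without control RV 3 the control value was -0.06. The other 7 receptors, Lrp6 among them, had log2 fold changes between -0.13 (Fzd6 in Wnt LOF) and 0.08 (Fzd3 in both genotypes). The value of Fzd1 in Wnt LOF was -0.03, and -0.12 without both WntLOF libraries numbered 1. The 95% bounds on the linear fold lay between 0.757 and 1.40 for all members in Wnt LOF and between 0.61 and 1.51 in control.

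Libraries of equal number correlated between ventricles, so they were also read as pairs, a description added with the values known. In Wnt LOF hearts Fzd3 was higher in RV in all 3 pairs and Fzd6 was lower, beside 14.6% of genes higher and 12.5% lower. In control hearts Fzd7 was higher in RV in all 3 pairs and Fzd2 and Lrp5 were lower in all 3, beside 17.4% of genes higher and 18.1% lower. Control pair 2 is uncertain, since its libraries differed at 5 of the 15 on-off genes and those of every other pair at 0 or 1. The replicate block below keeps it as a pair. Wnt LOF pair 1 is made of the 2 libraries whose ventricle genes went against their labels. Without it, in an alternative added after the data were seen, Fzd3 and Fzd5 were higher in RV in both remaining Wnt LOF pairs (2 of 10 members, beside 30.2% of genes). Fzd1, Fzd4, Fzd6, Fzd8 and Lrp5 were lower in both (5 of 10, beside 30.6%). With the pair as a replicate block, 0 of 10 members were called in either genotype by edgeR, beside 0 of 15494 genes in control and 1 in Wnt LOF. Without both WntLOF libraries numbered 1, added after the data were seen, the block called 297 of 15692 genes in Wnt LOF. It called 0 of 10 members there. The smallest member p was that of Lrp5, at 0.0181 unadjusted and 0.203 adjusted by edgeR's quasi-likelihood test.

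**Figure D4:**
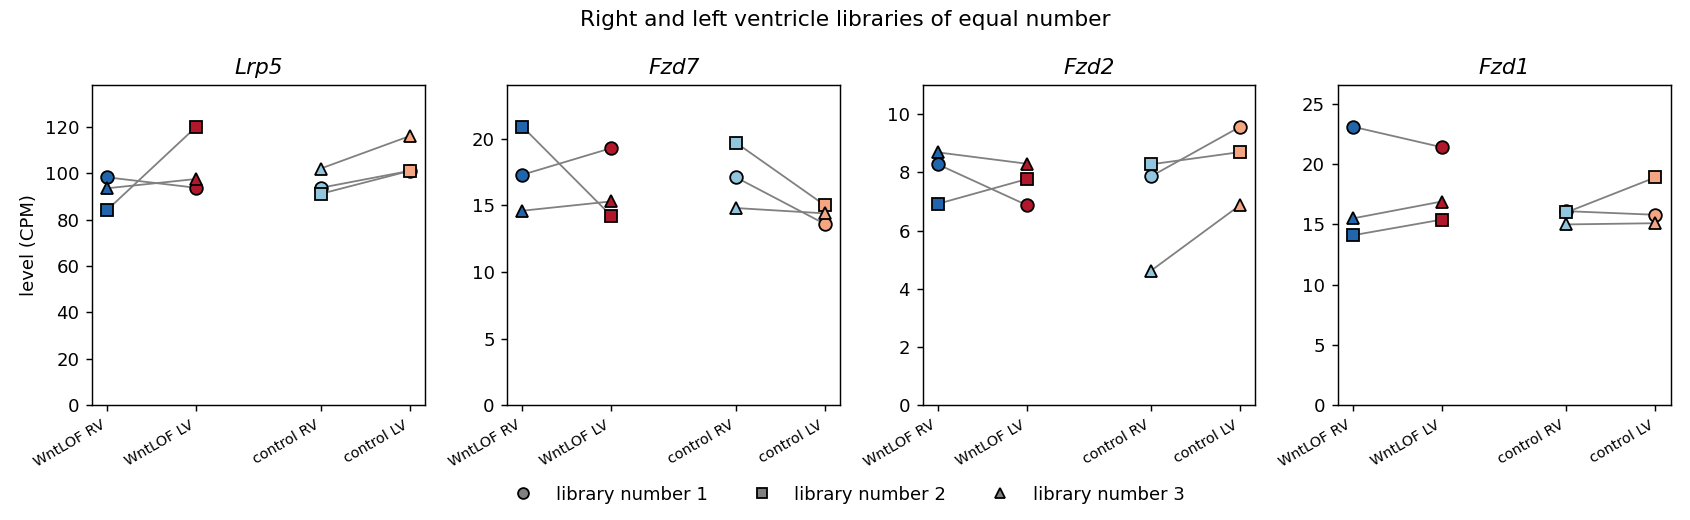
Level (y axis, CPM) of Lrp5, Fzd7, Fzd2 and Fzd1 in RV and LV libraries of equal number (x axis, WntLOF left and control right in each panel), with a line joining each pair. In Wnt LOF hearts the lines of Lrp5, Fzd2 and Fzd7 run both ways. For Lrp5 this rests on the pair numbered 1 alone, whose ventricle labels are in doubt. In control hearts all 3 Lrp5 and Fzd2 lines end higher at the LV and all 3 Fzd7 lines end lower. The control pair numbered 2 is uncertain, since its libraries differed at 5 of 15 on-off genes.

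Whether loss of Wnt function differed between ventricles was asked with the interaction term, the RV difference minus the LV difference. No receptor was called by edgeR's quasi-likelihood test with Benjamini-Hochberg adjustment (0 of 10, beside 0% of genes), and 0 had an unadjusted p under 0.05, beside 2.01% of genes. DESeq2 also gave 0 and 0. The largest value was that of Fzd2 at 0.34 (SE 0.28), with an adjusted p of 1 and an unadjusted p of 0.256 by the edgeR test, and without control RV 3 it was 0.11. The other 9 members lay between -0.15 (Fzd7) and 0.06 (Fzd1).

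The receptors' pathway was read from 6 lists of 89 genes, of which 62 were tested: other Wnt receptors, receptor turnover, receptor partners and maturation, Dishevelled and receptor-proximal signalling, Wnt ligands and secretion, and secreted antagonists. None of the 62 was called by edgeR in any comparison of the 12 libraries. For Wnt LOF against control, 0 had an unadjusted p under 0.05 in the LV, beside 2.85% of all genes, and 1 in the RV (1.61%), beside 2.7%. That gene was Lgr6, an R-spondin receptor of the group that protects Frizzleds from turnover. It had 51.4, 96.5 and 57.3 CPM in WntLOF RV and 43.1, 37.9 and 46.3 CPM in control RV, with a log2 fold change of 0.69 (SE 0.26) and an adjusted p of 1 by edgeR. The groups did not overlap, beside 3.61% of all genes wholly higher in WntLOF RV, and in WntLOF RV the library numbered 2 stood highest. In WntLOF LV it had 53.6, 98.7 and 61.5 CPM, against 46.3, 47.0 and 54.2 CPM in control LV, with a log2 fold change of 0.54 (SE 0.26). Without both WntLOF libraries numbered 1, a setting added for the pathway genes after the data were seen, 3 of the 62 (4.84%, beside 2.26% of all genes) had such a p in the LV and 2 (3.23%, beside 4.65%) in the RV, Lgr6 among both.

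Between ventricles, 2 of the 62 (3.23%) had an unadjusted p under 0.05 in Wnt LOF hearts, 0 higher and 2 lower in RV, beside 4.81% of all genes. In control hearts 7 of the 62 (11.3%) did, 6 higher and 1 lower in RV, beside 4.89%. The Wnt LOF count rests on the labels of both libraries numbered 1. Without them it was 9 (14.5%), 5 higher and 4 lower in RV, beside 8.86% of all genes, and 1 gene, Wif1, was called by edgeR, beside 0.0127% of all genes. Its log2 fold change was 3.06 (SE 0.25, adjusted p = 0.00073 by edgeR's quasi-likelihood test). Wif1 was named after its values were seen and was one of the genes that put those libraries in doubt, so its call is not independent of leaving them out. Among the 7 in control hearts was Lrp4, a relative of the co-receptors that binds sclerostin, with 59.1, 62.2 and 55.5 CPM in control RV and 40.0, 46.1 and 49.0 CPM in control LV. Its log2 fold change was 0.39 (SE 0.16). Wnt5a, a ligand of polarity signalling, had 19.0, 22.4 and 11.8 CPM in control RV and 10.6, 10.1 and 9.08 CPM in control LV, with a log2 fold change of 0.83 (SE 0.27). Neither gene's control ventricles overlapped, beside 6.68% of all genes wholly higher in control RV, and both had adjusted p of 0.922 by edgeR's quasi-likelihood test. Both were named for a small p in this same comparison. In Wnt LOF hearts without the libraries numbered 1 the log2 fold changes were 0.33 (SE 0.12) for Lrp4 and 0.61 (SE 0.25) for Wnt5a, with adjusted p of 0.443 and 0.505 by edgeR. Daam1, a Dishevelled-binding formin, was the gene lower in control RV, at -0.24 (SE 0.10). For the interaction 1 was higher and 2 were lower (4.84%) at that p, beside 2.01% of all genes, and without the libraries numbered 1 they were 1 and 1 (3.23%, beside 1.84%).

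The genes nearest to each receptor in pattern over the 12 libraries were found among 13664 genes with a mean of at least 1 CPM, by the root mean square difference of standardised log2 CPM. The closest was 2900026A02Rik to Lrp5, at 0.193, beside a median of 1.36 over all genes. Sema6b lay 0.273 from Fzd4, Nudt5 0.282 from Fzd2, Kdm6a 0.329 from Fzd3 and Amigo2 0.331 from Fzd7. For Fzd7 the second nearest was Sfrp1, a secreted Wnt antagonist, at 0.415. Slc38a6 lay 0.412 from Fzd1, and the nearest to Fzd5, Fzd8, Lrp6 and Fzd6 lay at 0.340, 0.417, 0.443 and 0.573. With 12 points from shared libraries, these are descriptions. Between members the smallest difference was 0.693, between Fzd5 and Lrp6, and the largest 1.79, between Fzd7 and Lrp5.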

How the data were processed

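RNA from mouse ventricles was sequenced in 12 libraries. The authors deposited raw counts per Ensembl gene (41192 rows for 40594 genes; 598 repeated rows with equal counts were left out). Their comparison tables, 1 per ventricle, hold log2 fold changes with p-values raw and adjusted, signed linear folds, and each library's log2 CPM, as deposited. Subread, featureCounts and edgeR come from the submitters' processing notes. The aligner, the build and the strand setting were not given in the sources used here. Groups come from sample titles. The 10 members and all lists were chosen with earlier results of these data known.

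Counts were fitted with edgeR 4.0.16 (R 4.3.3, limma 3.58.1): TMM factors (0.961 to 1.04), filterByExpr by group, robust quasi-likelihood, 1 mean per group over all 12 libraries. All 5 contrasts were tested with Benjamini-Hochberg adjustment over 15494 genes, threshold 0.05. The computation was tested on simulated data. DESeq2 1.42.0 was an alternative, as were other size factors, no filter, the compared groups alone, replicate blocks, a term for Y-linked reads and leaving out libraries. Exonic lengths came from GENCODE M21, which held 99.4% of the gene IDs. Named genes are all members, up to 2 genes per pathway list and comparison with the smallest p, checks of the labels, and the 2 genes nearest each member.

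Replicate numbers were taken to pair the ventricles because same-numbered RV and LV libraries deviated together over the genes tested (correlations 0.191, 0.197 and 0.594 in Wnt LOF, 0.411, 0.29 and 0.517 in control). The correlation of WntLOF RV 2 with WntLOF LV 1 (0.201) was above those of Wnt LOF pairs 1 and 2. Control LV 2 and control RV 2 differed at 5 of 15 on-off genes, so that pair is uncertain. Genotypes were not paired (same-numbered correlations -0.043, -0.0903 and 0.233 in the LV, 0.0885, 0.113 and 0.306 in the RV). Both values of libraries numbered 3 were above those of Wnt LOF ventricle pairs 1 and 2.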

Additional observations from a re-analysis of the deposited data

How the results depend on the processing

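No alternative called a receptor: of 810 recomputed log2 fold changes, 0 passed the threshold and 109 changed sign, none of them a called value. The replicate block called 0 of 10 receptors within ventricle and within genotype, beside 0 or 1 of 15494 genes, so it changed no receptor call. Of the sign changes, 71 came from leaving out one library. The ranges over such fits are given first for members whose sign changed. For Wnt LOF against control in the LV they were Fzd1 -0.04 to 0.22, Fzd3 -0.10 to 0.06, Fzd5 -0.12 to 0.14, Fzd8 -0.10 to 0.03, Lrp5 -0.14 to 0.05 and Lrp6 -0.08 to 0.07. In the RV they were Fzd1 -0.08 to 0.30, Fzd2 -0.02 to 0.35, Fzd3 -0.15 to 0.06, Fzd6 -0.07 to 0.04, Fzd7 -0.11 to 0.15, Lrp5 -0.11 to 0.00 and Lrp6 -0.07 to 0.01. For RV against LV in control they were Fzd1 -0.14 to 0.02, Fzd3 -0.02 to 0.19, Fzd4 -0.13 to 0.14, Fzd5 -0.00 to 0.11, Fzd8 -0.09 to 0.05 and Lrp6 -0.02 to 0.06. In Wnt LOF they were Fzd1 -0.28 to 0.13, Fzd2 -0.01 to 0.15, Fzd3 -0.02 to 0.14, Fzd5 -0.18 to 0.08, Fzd7 -0.02 to 0.26, Fzd8 -0.12 to 0.01 and Lrp6 -0.08 to 0.07. For the interaction they were Fzd1 -0.20 to 0.21, Fzd3 -0.12 to 0.10, Fzd4 -0.22 to 0.05, Fzd5 -0.24 to 0.02, Fzd8 -0.11 to 0.04, Lrp5 -0.10 to 0.09 and Lrp6 -0.09 to 0.05. The members that kept their sign for Wnt LOF in the LV were Fzd2 (-0.25 to -0.03), Fzd4 (0.10 to 0.36), Fzd6 (0.02 to 0.12) and Fzd7 (0.04 to 0.28). Between ventricles, those that kept it included Fzd7 in control (0.15 to 0.36). Lrp5 did so in control (-0.20 to -0.08) and in Wnt LOF (-0.24 to -0.06).

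With total counts the sign changed for RV against LV in Wnt LOF in Fzd2 (-0.00) and Lrp6 (-0.05), in control in Lrp6 (-0.00), for Wnt LOF in the LV in Fzd5 (0.02), Lrp5 (0.00) and Lrp6 (0.01), and for the interaction in Fzd3 (-0.04). The interaction of Fzd3 was also -0.00 without the filter, with the replicate block and with the Y-linked term. Without both WntLOF libraries numbered 1, the LV values were Fzd1 -0.04 and Lrp5 0.04, the RV values Fzd1 -0.08 and Fzd6 0.00, those of RV against LV in Wnt LOF Fzd2 -0.04 and Fzd5 0.12, and the interactions Fzd1 -0.04, Fzd5 0.06, Fzd7 0.01 and Lrp6 0.01. With control LV 2 left out too they were, in the LV, Fzd6 -0.01 and Lrp5 0.00, in the RV Fzd1 -0.08 and Fzd6 0.00, for RV against LV in control Fzd1 0.02 and Lrp6 -0.00, in Wnt LOF Fzd2 -0.04 and Fzd5 0.12, and for the interaction Fzd1 -0.15, Fzd3 -0.01, Fzd5 0.11, Fzd6 0.01 and Lrp6 0.02. The replicate block without both WntLOF libraries numbered 1, added after the data were seen, gave Fzd2 -0.04 and Fzd5 0.13 for RV against LV in Wnt LOF, and interactions of Fzd1 -0.05, Fzd5 0.06 and Lrp6 0.01. The cause was not tested.

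When one library was left out, the count of receptors whose groups do not overlap, 0 in each comparison, was 0 to 3 in the LV and 0 to 1 in the RV for Wnt LOF (beside 14.5% to 23.1% and 13.9% to 20.7% of all genes). For RV against LV it was 0 to 1 in Wnt LOF and 0 to 3 in control (beside 12.7% to 24.7% and 19.7% to 27.1%). With total counts it was 1 (Lrp5) for RV against LV in control, beside 12.6% of genes. Without both WntLOF libraries numbered 1 it was 1 for Wnt LOF in the RV (beside 20.7%) and 2 for RV against LV in Wnt LOF (beside 36.8%). With control LV 2 left out too it was 1 and 2 (beside 20.7% and 36.8%), and 1 in control (beside 23.2%). The interaction of Fzd2 ran from 0.11 to 0.48 and its control ventricle difference from -0.43 to -0.06 when one library was left out. Depth limits Fzd3 most, at 42 to 76 reads per library. Per kb of the longest transcript, an alternative added after the data were seen, Lrp6 had 15.9 and Fzd6 6.59 CPM per kb, and the order of the receptors was the same. The ranges of Lrp6 (14 to 17 CPM per kb) and Lrp5 (9.47 to 13.5), which overlapped by exon length, did not overlap by this one.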

Other observations

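The library numbered 3 was the only one in each group with the Y-linked gene Ddx3y above 1 CPM. Fzd3 was lowest in these libraries in all 4 groups, with 3.09 to 3.32 CPM against 3.62 to 4.24 CPM in the other libraries, as were 4.69% of genes tested. With a term for these libraries its log2 difference, number 3 minus the rest, of -0.27 (SE 0.11) had an adjusted p of 0.275 by edgeR's quasi-likelihood test. Fzd4 ran from 51.5 to 57.9 CPM in them and from 40.9 to 60.0 CPM in the rest, with a difference of 0.19 (SE 0.08) and an adjusted p of 0.301 by edgeR. Over all genes tested this term had an unadjusted p under 0.05 in 15.5% and called 1.72%. The pattern was noticed after the values were seen, and sex and other features shared by libraries numbered 3 cannot be told apart.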
